A study of Saccharomyces cerevisiae with 24 samples.

Results

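Small open reading frames without a gene name lie among the outermost positions of many budding yeast chromosomes, and 7 of them, out of 6205 open reading frames (ORFs) measured, are described here. They are YAL069W, YAR060C, YBL109W, YDR544C, YEL076W-C, YLR465C and YNL338W. They were chosen by their log2 ratios in the dot4-5 strain, where they were higher, so their values in that strain are a description and carry no test. None of the 7 has an entry in the RefSeq annotation of Saccharomyces cerevisiae, and no function is given for them here.

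Each array compared total RNA of 2 strains labelled with the dyes Cy5 and Cy3. The medium was YEPD, rich in glucose. The strains compared were UCC6406 with the allele dot4-1, UCC6407 with the allele dot4-5, UCC6435 labelled as a dot4 null strain, and UCC6432 with wild-type DOT4 without a tag. All were set against UCC6408, which carries wild-type DOT4 fused to 6Myc, an epitope tag, and the labels give dot4-1 and dot4-5 the same tag. Each strain had 3 numbered sets of 2 arrays with the dyes exchanged, 24 arrays in all, and the only values deposited are log2 ratios of the channels. Not given in the sources used here are the changes that the alleles make, further markers of the strains, the probe design, and whether sets came from separate cultures.

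DOT4 is the gene annotated as UBP10 (YNL186W), an enzyme that removes ubiquitin from histone H2B. Genes placed near yeast telomeres are silenced by the Sir proteins, which spread along nucleosomes from the chromosome end, and DOT4 was named for disrupting this silencing when altered in dosage. Yeast chromosome ends carry repeated X elements and, at many ends, Y' elements with helicase genes of the YRF1 family, so neighbouring transcripts and copies at other ends can share sequence. Whether the probes told such copies, or the 2 strands of one place, apart was not tested.

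The sign of every value below rests on UBP10. Taken as the labels order the strains and dyes, the null arrays would give UBP10 log2 ratios of 4.03 to 5.3 in favour of the null strain on 6 of 6 arrays. All 24 arrays were therefore turned to the direction that is likely, with DOT4-6Myc as the denominator, where UBP10 was at -4.69 ± 0.37 (SD, n = 3 sets) in the strain labelled null, -0.62 ± 0.054 in dot4-1, -0.24 ± 0.025 in dot4-5 and -0.17 ± 0.081 in untagged DOT4. The other strains follow the null arrays through the dye effect they share, as their own UBP10 values are small. If the labels' order holds, each sign is exchanged, and "rose" reads as "fell". Were the names swapped on the null arrays alone, the null values would stand as given here. The signs of dot4-1, dot4-5 and untagged DOT4, and of the differences among them, would then be exchanged. The differences of the strain labelled null from them would change as well. All values are log2 ratios centred on the median of their array, and a set value is the mean of its 2 arrays.

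The systematic names place the members by chromosome, arm and number, where the number rises from the centromere to the end. YAL069W had the highest number of the 71 ORFs in the table on the left arm of chromosome I. YDR544C on the right arm of chromosome IV, YEL076W-C on the left arm of chromosome V and YNL338W on the left arm of chromosome XIV each had 1 ORF with a higher number. YLR465C on the right arm of chromosome XII had 2, and YBL109W on the left arm of chromosome II had 3. YAR060C, on the right arm of chromosome I, lay further in, with 10 of the 36 ORFs of its arm beyond it. Thus 6 of the 7 were among the 5 highest numbers of their arm.

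In dot4-5, the strain that chose them, the 7 members ran from 0.23 to 0.70 with a median of 0.44, or 1.17-fold to 1.63-fold. YEL076W-C stood at 0.51, 0.87 and 0.72 in sets 1, 2 and 3. YLR465C followed at 0.40, 0.72 and 0.52. Both had their highest value in set 2. YBL109W was at 0.49, 0.50 and 0.41 and YDR544C at 0.48, 0.44 and 0.40. YAL069W was at 0.29, 0.52 and 0.35, YNL338W at 0.40, 0.32 and 0.29, and YAR060C, the lowest, at 0.22, 0.21 and 0.26. The ratio was above 0 on all 42 readings of a member on an array of this strain.

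Few other genes moved in dot4-5: percentiles 5 and 95 of all 6195 genes tested lay at -0.08 and 0.07. In the fit over all genes, 0.92% of genes passed as higher there and 0.113% as lower, and the 7 members passed by choice. YAR060C at 0.23 was the lowest member, while YDR543C, next to YDR544C, was at 0.33 ± 0.073, did not pass and is no member. Without dot4-5 set 1, 2 or 3, the number of members that passed was 4, 5 and 5. The sets left are part of the values that chose the members, so these counts are no test of the rise. The higher calls of the whole fit numbered 57 against 7 lower ones, and 187 against 166 with arrays scaled to a common spread. Of the 57, 13 ORFs had no entry in the annotation, and besides the members these 6, which the choice left out, were YLR463C at 0.65, YEL074W at 0.54, YHR217C at 0.40, YFL063W at 0.36, YNL337W at 0.33 and YJR162C at 0.29.

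The null contrast was not used in choosing the members, although it shares the reference strain. All 7 members rose there (limma, adjusted p = 4.14e-08 to 0.000227), against 30.7% of all genes that rose, and their median was 0.69 against -0.01 over all genes. YBL109W was highest, at 1.03, 0.75 and 0.98 in sets 1, 2 and 3, a mean of 0.92 ± 0.15 (1.89-fold). YDR544C was at 0.80, 0.79 and 0.85 with a mean of 0.82 ± 0.032, the narrowest spread of the 7 in this strain. All 6 values of these ORFs exceeded 0.7.

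YEL076W-C was at 0.99, 0.72 and 0.62 in the strain labelled null, a mean of 0.78 ± 0.19. YNL338W was at 0.62, 0.66 and 0.81, a mean of 0.69 ± 0.10. YLR465C was at 0.69, 0.48 and 0.37, a mean of 0.51 ± 0.16. YEL076W-C and YLR465C thus had their highest value in set 1, and YNL338W in set 3. YAR060C, the member furthest from its chromosome end, was at 0.55, 0.33 and 0.48, a mean of 0.45 ± 0.11. YAL069W was at 0.56, 0.32 and 0.42, a mean of 0.43 ± 0.12.

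The dye decided the value of YAL069W in this strain. With the strain labelled null in Cy5 the 3 arrays gave 0.76 to 0.97 with a mean of 0.83. With that strain in Cy3 they gave -0.12 to 0.15 with a mean of 0.03, which alone did not pass (limma, adjusted p = 0.734). The same ORF differed less between the dyes in dot4-1, at means of 0.80 in Cy5 and 0.59 in Cy3, and in dot4-5, at 0.49 and 0.29. In untagged DOT4 the means were 0.25 and -0.14, a gap of 0.39 against 0.79 in the strain labelled null. Among the other 6 members the gap between the dyes in the strain labelled null ran from -0.35 for YEL076W-C to 0.18 for YAR060C, and each was above 0 on all 6 arrays.

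**Figure D1:**
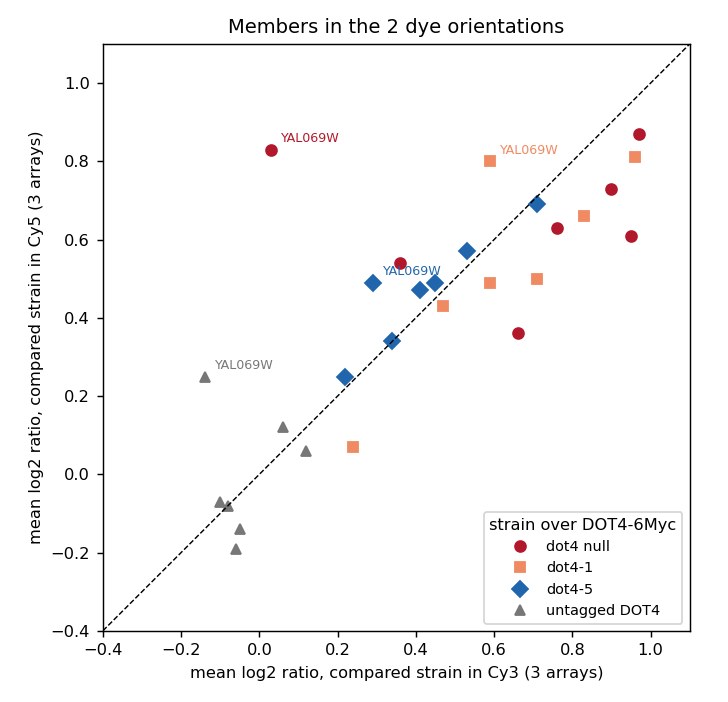
Mean log2 ratio to DOT4-6Myc of each of the 7 members in each strain, with the compared strain in Cy3 (horizontal, 3 arrays) and in Cy5 (vertical, 3 arrays); the dashed line marks equal values. Most points lie near the line, and YAL069W in the strain labelled null is far above it at 0.83 in Cy5 against 0.03 in Cy3.

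In dot4-1, 6 of the 7 members rose (limma), against 35.9% of all genes, with a median of 0.61 over the 7 against -0.01 over all genes. YBL109W was again highest, at 0.83, 0.82 and 1.00 in sets 1, 2 and 3, with a mean of 0.88 ± 0.10 (adjusted p = 7.53e-08). YDR544C was at 0.75, 0.65 and 0.84 with a mean of 0.75 ± 0.096 (adjusted p = 5.61e-08). YAL069W was at 0.72, 0.71 and 0.66 with a mean of 0.70 ± 0.030 (adjusted p = 3.25e-06). These set values were all above 0.6.

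YEL076W-C in dot4-1 was at 0.69, 0.52 and 0.60, a mean of 0.61 ± 0.085 (adjusted p = 5.97e-05). YNL338W was at 0.44, 0.49 and 0.69, a mean of 0.54 ± 0.13 (adjusted p = 2.80e-06), and YAR060C at 0.50, 0.39 and 0.45, a mean of 0.45 ± 0.058 (adjusted p = 1.72e-06). YLR465C was the exception. It was at 0.31, 0.03 and 0.13, a mean of 0.15 ± 0.14, and did not pass (adjusted p = 0.0977, 95% interval -0.02 to 0.33). In dot4-1, 31.9% of all genes had a higher mean than YLR465C, while at most 8.83% had a higher mean than any other member.

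In untagged DOT4, 0 of the 7 members passed in either direction with limma, 0 had an unadjusted p under 0.05, which 37.2% of all genes had, and 1 passed on values that were not centred, as did 1 in Cy5 alone. Of all genes 11.2% passed as higher and 14.6% as lower, 692 and 907 genes, or 192 and 1346 on values that were not centred. The member means ran from -0.12 ± 0.23 for YEL076W-C to 0.09 ± 0.052 for YAR060C, and 3 of the 7 were above 0. Set 1 held the lowest value of every member in this strain, with a median over the members of -0.16, against 0.03 in set 2 and 0.13 in set 3 as the highest of the medians. YBL109W, for example, was at -0.14, 0.02 and -0.11, and YAL069W at -0.20, 0.12 and 0.23.

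**Figure D2:**
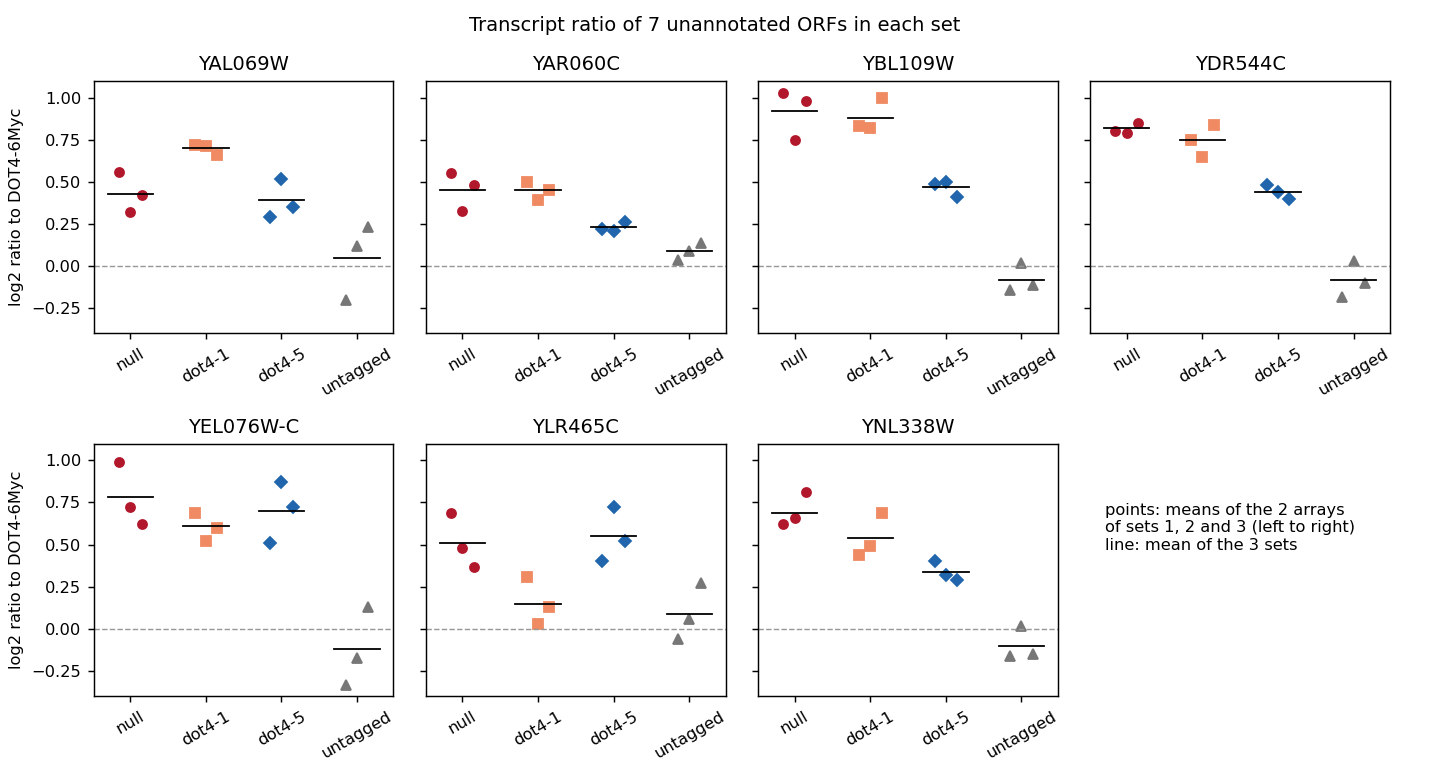
Log2 ratio to DOT4-6Myc of the 7 members, one panel each, in the strain labelled null, dot4-1, dot4-5 and untagged DOT4; points are sets 1, 2 and 3 from left to right (means of 2 arrays) and the line is their mean. For 6 of 7 members all sets of the first 3 strains lie above all sets of untagged DOT4. That count includes dot4-5, whose values chose the members, and its share over all genes was not computed. The YLR465C sets of dot4-1, 0.03 to 0.31, overlap with the untagged sets, -0.06 to 0.27.

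The differences between strains take out the shared reference. Set against untagged DOT4, all 7 members were higher in the strain labelled null (limma), as were 27.7% of all genes. The calls of all genes were 1719 higher and 1682 lower, or 2062 and 902 on values that were not centred, where the median of all genes was 0.10 and that of the members 0.89. The largest difference was that of YBL109W at 1.00 (95% interval 0.83 to 1.17, adjusted p = 7.89e-07), followed by YDR544C and YEL076W-C at 0.90. YNL338W differed by 0.79, YLR465C by 0.42 and YAL069W by 0.38. YAR060C differed least, by 0.36 (interval 0.23 to 0.49, adjusted p = 0.000253). The calls of YAL069W and YLR465C in this difference were lost with arrays scaled to a common spread, at 0.24 and 0.26, and that of YAL069W also in Cy3 alone, at 0.18.

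Between dot4-1 and untagged DOT4, 6 of the 7 members were higher in dot4-1 (limma), against 31.6% of all genes, at 1959 higher and 1929 lower calls, or 2296 and 1161 on values that were not centred. YBL109W differed by 0.96 and YDR544C by 0.83. YEL076W-C differed by 0.73, YAL069W by 0.65, YNL338W by 0.64 and YAR060C by 0.36. YLR465C differed by 0.07 and did not pass (interval -0.18 to 0.31, adjusted p = 0.624).

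Between the strain labelled null and dot4-1, 0 of the 7 members passed with limma, while 9.81% of all genes did, and 2 members had an unadjusted p under 0.05, against 30.1% of all genes. These were YLR465C, higher in the strain labelled null by 0.36 (95% interval 0.11 to 0.60, adjusted p = 0.0627), and YAL069W, at -0.27 (interval -0.49 to -0.05, adjusted p = 0.106). YLR465C passed at 0.43 without set 3 of the strain labelled null and, at the same value, without dot4-1 set 1, and at 0.36 with separate arrays. YAL069W passed at -0.56 in Cy3 alone and was at 0.03 in Cy5 alone. The differences of YAR060C, YBL109W and YDR544C were 0.00 (interval -0.13 to 0.13), 0.04 (interval -0.13 to 0.21) and 0.07 (interval -0.07 to 0.21). YNL338W was at 0.15 (interval -0.02 to 0.32) and YEL076W-C at 0.17 (interval -0.10 to 0.45).

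**Figure D3:**
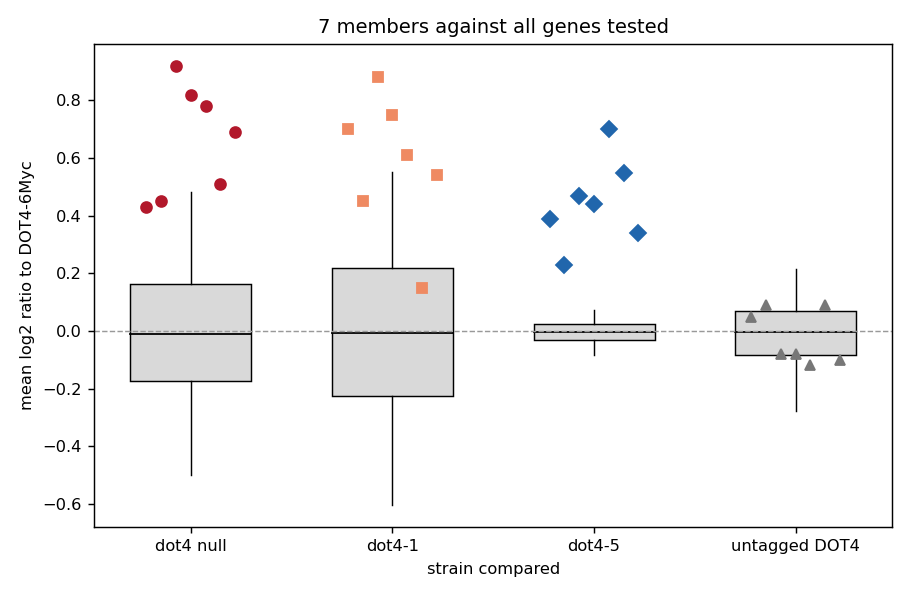
Mean log2 ratio to DOT4-6Myc of the 7 members (coloured points, in the order of their systematic names) and of all 6195 genes tested (box from percentile 25 to 75 with the median, whiskers to percentiles 5 and 95) in each strain. The spread of all genes is narrowest in dot4-5, and YLR465C in dot4-1 at 0.15 is inside the box.

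The order of the strains was not the same for every member. For YBL109W, YDR544C and YNL338W the strain labelled null had the highest mean, with sets that overlapped those of dot4-1, and for YAR060C both means were 0.45. For these 4 ORFs dot4-5 came next and untagged DOT4 was lowest, and neither the dot4-5 sets nor the untagged sets overlapped with those of another strain. As the members were chosen by dot4-5, the choice favoured its place above untagged DOT4. How many of all genes show such a separation was not counted. The value in the strain labelled null exceeded that in dot4-5 for YBL109W, YDR544C, YNL338W and YAR060C by 0.45, 0.38, 0.35 and 0.22, which is given without a test. YEL076W-C and YLR465C were as high in dot4-5 as in the strain labelled null: the difference, the strain labelled null minus dot4-5, was 0.08 for YEL076W-C and -0.04 for YLR465C, and their sets overlapped. YAL069W was highest in dot4-1, whose sets lay above those of the strain labelled null, while the latter overlapped with dot4-5. This order rests on the deposited scale. With arrays scaled to a common spread the median of the members in dot4-5 was 0.87, and the strain labelled null minus dot4-5 became negative for every member, from -0.15 for YAR060C to -0.83 for YEL076W-C.

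Across the 12 set means, the members most alike were YBL109W and YDR544C, with a root mean square difference of 0.106 on the log2 scale, and YDR544C and YNL338W, at 0.139. The pair most apart among the 21 was YBL109W and YLR465C, at 0.451. The close pairs join ORFs of different chromosomes, though YDR544C and YNL338W each lie next to a Y' helicase gene. Whether the ORFs of a pair share probe sequence was not tested.

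Outside the members, the 5 of 6169 genes nearest to the median profile of the members were YLL065W, YNL337W, YNR077C, YFL063W and YEL074W, with root mean square differences of 0.0847 to 0.130 over the 12 set means. All 5 lay within 5 numbers of the highest on their arm, on chromosomes XII, XIV, VI and V, and all but YNR077C lacked an annotation entry. YLL065W was at 0.59 ± 0.097 in the strain labelled null, 0.61 ± 0.11 in dot4-1, 0.32 ± 0.062 in dot4-5 and 0.04 ± 0.23 in untagged DOT4. YFL063W was at 0.73 ± 0.21, 0.77 ± 0.041, 0.36 ± 0.040 and -0.01 ± 0.11 in the same order. The likeness is a description and was sought among all genes.

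The neighbours of the members were taken as the ORFs of the same arm with a number within 5 of theirs, 46 in all and 45 tested. In the strain labelled null 29 of the 45 rose and 5 fell, where 32.7% of all genes fell, and in dot4-1 32 rose and 4 fell, where 37.5% of all genes fell. In dot4-5, 16 rose and 0 fell, and in untagged DOT4 4 rose and 5 fell, or 1 and 9 on values that were not centred. Their medians were 0.40, 0.36, 0.10 and 0.00. Of all genes, 30.7%, 35.9%, 0.92% and 11.2% rose in these strains, and 0.113% and 14.6% fell in dot4-5 and untagged DOT4. All 11 neighbours with a higher number than their member rose in the strain labelled null, with a median of 0.85. Of the 32 with a lower number 16 rose, with a median of 0.15, and these shares were not compared with a test. The 11 include 4 Y' helicase genes, at 0.94 to 1.01 in the strain labelled null, while the 3 ORFs beyond YAR060C were at 0.14 to 0.40.

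On chromosome II, YBL109W stood between ORFs that behaved differently. YBL111C, YBL112C and YBL113C, which lie further out, rose by 0.65 ± 0.20, 0.70 ± 0.13 and 0.97 ± 0.090 in the strain labelled null. YBL108W, the next ORF inward, was at -0.10 ± 0.12 (adjusted p = 0.171) and passed in opposite directions in the 2 dyes, at 0.37 in Cy5 alone and -0.57 in Cy3 alone. YBL107W-A fell there, to -0.76 ± 0.14, and MIX23 (YBL107C) was at 0.08 ± 0.10. In dot4-5 the 3 outer ORFs were at 0.72, 0.84 and 0.86, above YBL109W at 0.47, while in the strain labelled null YBL109W at 0.92 exceeded YBL111C and YBL112C.

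On chromosomes IV and XIV the members lay just inside a Y' helicase gene. YDR545W (YRF1-1), beyond YDR544C, rose by 0.94 ± 0.12 in the strain labelled null, 0.83 ± 0.057 in dot4-1 and 0.86 ± 0.088 in dot4-5. YNL339C (YRF1-6), beyond YNL338W, rose by 1.00 ± 0.17, 0.84 ± 0.052 and 0.83 ± 0.040. Over the 7 helicase genes measured, dot4-1 minus dot4-5 ran from -0.05 to 0.01 on the deposited scale, while YDR544C was at 0.44 in dot4-5 against 0.75 in dot4-1 and YNL338W at 0.34 against 0.54. Inward of them, YDR543C was at 0.76 ± 0.15, 0.71 ± 0.21 and 0.33 ± 0.073 in the strain labelled null, dot4-1 and dot4-5, and YNL337W at 0.56 ± 0.13, 0.59 ± 0.064 and 0.33 ± 0.050. The seripauperin gene PAU10 (YDR542W) rose by 0.65 ± 0.046 in the strain labelled null and was at 0.13 ± 0.045 in dot4-5. COS1 (YNL336W) was at 0.17 ± 0.17 in the strain labelled null, a call lost in Cy5 alone, at 0.04, without set 1, at 0.08, without set 2, at 0.18, and in a fit of that strain alone.

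On chromosomes V and XII most ORFs around the member passed in dot4-5 as well, 5 of 8 around YEL076W-C and 5 of 7 around YLR465C. Around YEL076W-C, the ORFs YEL076C and YEL076C-A, which bear the same number, rose by 0.73 ± 0.18 and 0.65 ± 0.16 in the strain labelled null and were at 0.58 ± 0.099 and 0.59 ± 0.15 in dot4-5. YEL077C beyond it rose by 0.85 ± 0.21 in the strain labelled null and was at 0.86 ± 0.12 in dot4-5. YEL074W rose by 0.84 ± 0.088 and was at 0.54 ± 0.14, and YEL073C, the next number inward, was at -0.04 ± 0.058 and 0.12 ± 0.062. Of these adjacent numbers, the first passed in both strains and the second in neither. YEL075C was at 0.47 ± 0.48 in the strain labelled null, the widest spread near a member, and its call was lost without set 1, at 0.28, and without set 2, at 0.38. Its call in dot4-5, at 0.63 ± 0.098, was lost under 9 of the alternatives, each dot4-5 set left out among them, at 0.58 to 0.68. Around YLR465C, YLR463C rose by 0.74 ± 0.17 in the strain labelled null and 0.64 ± 0.11 in dot4-1, and YLR464W rose by 0.67 ± 0.14 in the strain labelled null and 0.36 ± 0.078 in dot4-1, and was at 0.62 ± 0.15 in dot4-5. YLR465C, named for the strand of YLR463C and not that of YLR464W, was at 0.51, 0.15 and 0.55 in the same order. The helicase genes YRF1-4 (YLR466W) and YRF1-5 (YLR467W) beyond it rose by 1.01 ± 0.18 and 0.98 ± 0.15 in the strain labelled null.

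On chromosome I, 7 of the 10 neighbours rose in the strain labelled null and 8 in dot4-1, while in dot4-5 the highest of the 10 was PAU8 at 0.10. PAU8 (YAL068C), next to YAL069W, rose by 0.44 ± 0.068 in the strain labelled null and by 0.44 ± 0.078 in dot4-1, and was at 0.10 ± 0.029 in dot4-5 (limma, adjusted p = 0.881). SEO1 (YAL067C), a putative permease gene, was at -0.01 ± 0.21, 0.20 ± 0.10 and -0.03 ± 0.18, and did not pass. In Cy5 alone it passed at 0.24 in the strain labelled null and 0.33 in dot4-1, and in dot4-1 it passed under 8 of the 20 alternatives, without centring, in a fit of that strain alone and with each of 5 sets of other strains left out among them, at 0.20 to 0.33. Next to YAR060C, YAR062W rose by 0.40 ± 0.16 and 0.41 ± 0.13 in the strain labelled null and dot4-1 and was at 0.00 ± 0.15 in dot4-5. YAR061W, between them in number, was at 0.14 ± 0.087 and 0.14 ± 0.045, each with an adjusted p of 0.0209, and these calls were lost under 6 and 4 of the alternatives, without set 1 or 2 of the strain among them, at 0.10 to 0.14. Whether the strains' effects on a member and on its neighbours differ was not tested.

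**Figure D4:**
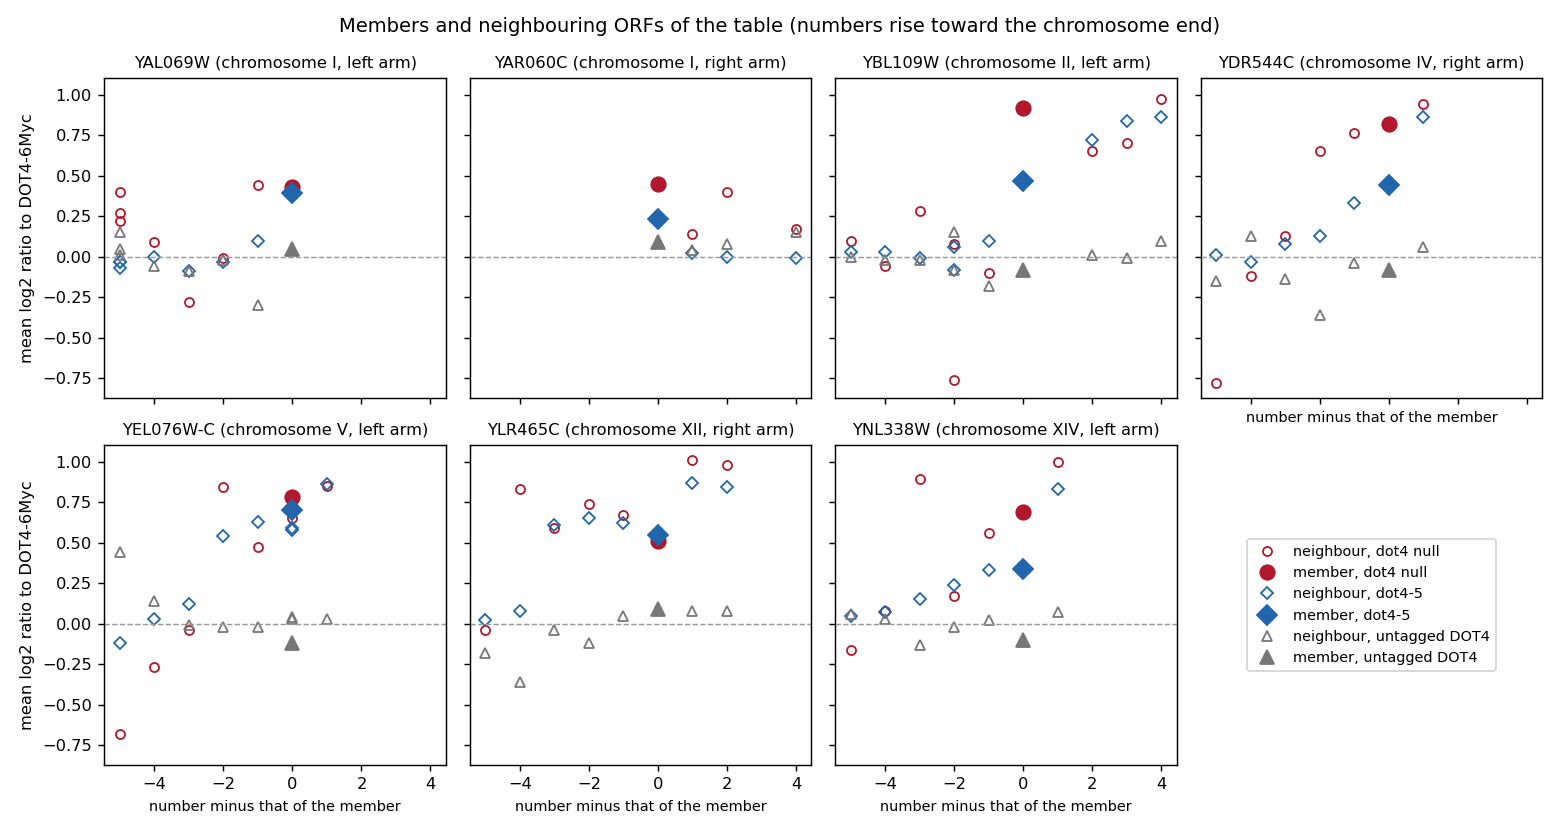
Mean log2 ratio to DOT4-6Myc of each member (filled) and of the ORFs within 5 systematic numbers of it (open) in the strain labelled null, dot4-5 and untagged DOT4; the horizontal axis is the difference in number, which rises toward the chromosome end. In the strain labelled null all ORFs beyond a member, 4 of them Y' helicase genes, are above 0. Inward ORFs there range from -0.78 (FDC1) to 0.89 (DDI2), and untagged values stay between -0.36 and 0.44.

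Against wider sets, the members shared their direction with many end ORFs. Among 74 other unnamed ORFs within the 5 highest numbers of an arm, 44 rose and 13 fell in the strain labelled null, 47 rose and 12 fell in dot4-1, 31 rose and 0 fell in dot4-5, and 1 rose and 10 fell in untagged DOT4, with medians of 0.34, 0.25, 0.18 and -0.03. These ORFs include 17 of the neighbours above. The 27 of them that, like the members, lack an annotation entry had medians of 0.22, 0.15, 0.12 and -0.07. Their rises numbered 15, 15, 5 and 0 and their falls 7, 6, 0 and 7. The 47 with an entry had medians of 0.65, 0.44, 0.59 and -0.01, with 29, 32, 26 and 1 rises and 6, 6, 0 and 3 falls. Among 81 named genes at the same positions the medians were 0.21, 0.13, 0.09 and -0.03, with 46, 41, 11 and 4 rises and 12, 18, 0 and 18 falls. The 7 Y' helicase genes measured are all among these named genes and make up 7 of their 11 rises in dot4-5. They all rose in the first 3 strains, with medians of 1.00, 0.82 and 0.85, and lay between 0.06 and 0.12 in untagged DOT4, where none passed except 1 in Cy3 alone. ORFs without an annotation entry did not rise as a class: of 491 others tested, 19.8% rose and 40.5% fell in the strain labelled null, with a median of -0.06. Among 20 genes of silencing and H2B ubiquitination, 11 rose and 2 fell in the strain labelled null, 14 rose and 2 fell in dot4-1, values ran from -0.09 to 0.06 in dot4-5 and 2 rose in untagged DOT4, with medians of 0.13, 0.37, -0.01 and 0.00. Over all genes, 30.7%, 35.9%, 0.92% and 11.2% rose in the same order of strains, and 32.7%, 37.5%, 0.113% and 14.6% fell. The RNA came from whole cultures, so a change in a share of the cells and a change in every cell cannot be told apart.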

How the data were processed

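Per the labels, each of the 24 arrays is a Cy5/Cy3 comparison of total RNA. The deposited table holds 1 log2 ratio per array for 6205 ORFs, and 83 of 148920 cells are empty. The log base is not stated and was read from the values: the logs of ratios 3 and 4 to base 2 filled 19 and 8 cells, against 0.3 and 0.15 on average at neighbouring values. Not given in the sources used here are the array type, the background correction, the normalization and a genome build. Array medians as deposited ran from -0.092 to 0.276.

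Values were centred on the array median and turned so that DOT4-6Myc is the denominator, which departs from the labels' order. The mean over both dye orientations, where strain effects cancel, correlated across genes at 0.823 to 0.906 between the 6 pairs of strains, so the numerator dye was the same throughout. The fit used limma 3.58.1 (R 4.3.3, functions lmFit and eBayes) on 12 set means, with 1 mean per strain and 8 residual degrees of freedom. A gene needed a value in at least 2 of 3 sets of every strain, which left 6195 and all 7 members. Tests were two-sided at an adjusted p of 0.05, with Benjamini-Hochberg adjustment over all genes of each of 6 tested comparisons. UCC6408 is the control strain, so a ratio is tested against 0, which leaves out the control's own spread. Since sets may be technical repeats, the p-values cover only the spread among them, and the number of arrays limits the precision. The fit was tested on simulated data first.

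The members and gene lists were chosen with earlier results of these data known. Genes named are the members, UBP10, neighbours within 5 numbers on the same arm (those within 2 numbers one by one, others as counts or examples), the Y' helicase genes and the 5 genes nearest to the members' median profile. ORFs called in dot4-5 without an annotation entry, and the examples among neighbours, were named after their values were seen. Names come from the RefSeq annotation of assembly R64, which 5705 IDs of the table matched, and its coordinates are not used. Sequences of the members were not used here. Same-numbered sets of different strains correlated in their deviations between -0.30 and 0.67 over 18 pairs, of which 7 exceeded 0.1, so the set numbers were not taken to pair the strains.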

Additional observations from a re-analysis of the deposited data

How the results depend on the processing

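The alternatives were values not centred, arrays scaled to a common spread, each dye orientation alone, separate arrays, a fit of the compared strains only, the set number as a replicate block, genes with all 24 values, and each set left out in turn. The count of members that rose stayed at 7 in the strain labelled null except in Cy3 alone (6), and at 6 in dot4-1 under every alternative run. The count higher than untagged DOT4 stayed at 7 for the strain labelled null except with scaled arrays (5) and in Cy3 alone (6), and at 6 for dot4-1. With the replicate block these counts were 7, 6, 7 and 6, and 0 for the strain labelled null minus dot4-1 and for untagged DOT4, as without it. In untagged DOT4 the count of 0 became 1 without centring (YNL338W, -0.17) and 1 in Cy5 alone (YAL069W, 0.25). In the strain labelled null minus dot4-1 the count of 0 became 1 in Cy3 alone, 1 with separate arrays, and 0 to 1 with a set left out. The median in dot4-5 moved from 0.44 to 0.87 with scaled arrays.

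In the tested comparisons, the following signs turned among the members and the neighbours within 2 numbers. YAL069W in untagged DOT4 was -0.03 without centring, -0.14 in Cy3 alone and -0.04 to 0.18 with a set left out, and in the strain labelled null minus dot4-1 0.03 in Cy5 alone. YAR060C in that difference was -0.11 in Cy3 alone and -0.04 to 0.07 with a set left out, and YBL109W was -0.02 to 0.12, lowest without set 1 of the strain labelled null. YLR465C was 0.00 to 0.16 in untagged DOT4 with a set left out, and in dot4-1 minus untagged DOT4 -0.01 with scaled arrays and -0.01 to 0.16 with a set left out. YAL067C in the strain labelled null was 0.01 without centring, 0.24 in Cy5 alone and -0.09 to 0.11 with a set left out. YBL108W was 0.37 in Cy5 alone in that strain and -0.16 in Cy3 alone in dot4-1, and YNL336W -0.01 in Cy5 alone in dot4-1. Among the untested differences, the strain labelled null minus dot4-5 was -0.25 for YAL069W and 0.13 for YLR465C in Cy3 alone, -0.08 for YEL076W-C in Cy5 alone, and turned to between -0.03 and 0.05 for these 3 with single sets of either strain left out. With scaled arrays that difference turned for 6 members and is negative for all 7, and dot4-1 minus dot4-5 turned for 5, to values from -0.19 to -0.42. The cause was not tested.

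Counts in lists that moved by over 1.5 times were, in dot4-5, 31 to 48 unnamed outermost ORFs and 11 to 38 named ones with scaled arrays (17 to 20 named ones in either dye alone, with separate arrays and in a fit of dot4-5 alone), and 0 to 2 silencing genes. In the strain labelled null the 13 silencing genes called became 7 with scaled arrays and in a fit of that strain alone. In untagged DOT4, counts lay between 4 and 15 for neighbours (9), 7 and 22 for unnamed outermost ORFs (11), 1 and 5 for silencing genes (2) and 0 and 1 for Y' helicases (0).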
